A study of Mus musculus with 24 samples.

Results

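Dorsal forebrain patterning factors are the transcription factors that lay out the cortical neuroepithelium before neurons are born. 9 of them were followed here across primary mouse neural stem cell (NSC) cultures: Lhx2, Emx1, Emx2, Pax6, Otx1, Otx2, Nr2f1, Nr2f2 and Tfap2c. The members were taken by gene symbol from a poly(A) RNA-seq table of 14922 genes, and 9 of 9 were present. Their levels were compared between groups to ask how much of the cortical identity the cultures kept. No uncultured cortex was among the samples, so levels in culture cannot be set against those of the tissue.

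The cultures came from the cortex of E14.5 embryos and grew as adherent monolayers with EGF, FGF and laminin, at fewer than 10 passages per the labels. All were female. FVB WT lines were FVB/NJ Smchd1+/+, and FVB MD43 lines were FVB/NJ Smchd1MommeD43/MommeD43, homozygous for a point change made by ENU in the chromatin protein SMCHD1. B6GFP WT lines were C57BL/6J and carried the Smchd1GFP fusion in both alleles per the study, although their genotype label reads Smchd1+/+. B6GFP MD43 lines were C57BL/6J and, per the study, homozygous for Smchd1MommeD43-GFP, the GFP fusion with the MommeD43 change introduced by CRISPR editing. Strain and GFP fusion therefore differed together, and their effects cannot be told apart. Batch 1 held both strains, batch 2 only FVB and batch 3 only B6GFP.

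Of 24 columns, 2 equalled the mean of their group mates in every gene and were left out (FVB MD43 replicate 3 and B6GFP MD43 replicate 2, both of batch 1). The other 22 libraries came from 17 lines: 6 libraries of 5 lines in FVB WT, 5 of 4 in FVB MD43, 6 of 4 in B6GFP WT and 5 of 4 in B6GFP MD43. The deposited values are log2 CPM, where CPM is a gene's count scaled to a common library size, after the authors' batch correction. Whole reads could be recovered from them, so that depth is known, and they are given uncorrected as RPM, the reads of a gene scaled in the same way to the total of the library, or as RPKM, which divides this by the exon length in kilobases. Libraries of batch 1 held 31186961 to 52943010 reads, those of batch 2 held 8105302 to 11250665 reads and those of batch 3 held 25809676 to 59282641 reads. A gene with 0 reads could therefore have been present at up to 0.0567 to 0.0962 RPM (batch 1), 0.267 to 0.370 (batch 2) or 0.0506 to 0.116 (batch 3), which is 3 reads per library. These limits, and the intervals on reads given later, cover counting error only.

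2 libraries of batch 3 stood apart. B6GFP MD43 replicate 2 held the highest RPM of 6 of 7 neuron markers, 4 of 5 endothelial markers and 5 of 7 mesenchymal and meningeal markers. Its summed neuron marker level was 1675 RPM, against 587 to 1186 in the other 21 libraries. B6GFP WT replicate 4 held the highest levels of 4 of 9 genes of the cortical hem and midline, the signalling centre at the medial edge of the cortex. The sum of the 9 genes in this library was 218 RPM, within the 139 to 288 of the other 21 libraries. It also held the highest RPM of 3 of 12 ventral genes, but its sum of the 12 was the lowest. That sum was 1384 RPM, against 1677 to 3302 in the other 21 libraries. Of 6 midbrain, hindbrain and spinal cord genes 2 were highest in it. Their sum was 53.2 RPM, within the 21.5 to 81.2 of the other 21 libraries. Library quality weights in the fit were 0.158 for B6GFP MD43 replicate 2 and 0.101 for B6GFP WT replicate 4. The other libraries had weights of 0.293 to 4.90. Smchd1 itself, whose point change does not remove the transcript, differed between MD43 and WT by 0.052 (SE 0.060, adjusted p = 0.942) in FVB and by -0.0087 (SE 0.078, adjusted p = 1) in B6GFP on the log2 scale, so RNA level does not check the genotype labels.

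In the early telencephalon these factors act in gradients. Lhx2 acts as a selector of cortical fate at the expense of the hem. Emx2 and Nr2f1 are highest caudally and Pax6 is highest rostrolaterally, and the opposed gradients help to set the position of cortical areas. Emx1 and Emx2 are paralogs, as are Otx1 and Otx2, and Nr2f1 and Nr2f2. Stem cells kept in EGF and FGF are known to change their regional programme with time in culture.

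5 of the 9 factors were well expressed in each of the 22 libraries. They were Lhx2, Nr2f1, Emx2, Pax6 and Otx1, with at least 301 reads in the poorest library. Per kilobase of annotated exon, the scale on which genes can be compared, Lhx2 had a median of 16.1 RPKM, Nr2f1 12.2, Emx2 12.03, Otx1 4.37 and Pax6 2.76. Lhx2 stood at the 75.9th percentile (median over libraries) of the 13484 genes with a known length, Emx2 at the 70.0th and Nr2f1 at the 68.8th. Otx1 was at percentile 43.2 and Pax6 at 32.8, both below the middle gene of that set. Well expressed thus refers here to the number of reads, not to a high rank among genes. The order of Lhx2, Nr2f1 and Emx2 was not fixed, since each of them was placed between 1 and 3 among the 9 in different libraries. Otx1 ranked ahead of Pax6 in the median library, but Pax6 has an exon union of 11694 bases over many isoforms. With the longest transcript as the length (4427 bases), Pax6 had 7.30 and Otx1 4.49 RPKM, so their order depends on the length used.

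The other 4 factors were low. Nr2f2 had a median of 0.378 RPKM and stood at the 12.4th percentile, although it was above 1 RPM in 22 of 22 libraries. Tfap2c was above 1 RPM in 4 libraries, Emx1 in 3 and Otx2 in 2. Emx1 had 0 reads in 9 of 22 libraries and Otx2 also in 9. In the median library, 1 member of each paralog pair was thus well expressed and the other low. The exception was B6GFP MD43 replicate 2 of batch 3, where Emx1 reached 5.56 RPKM.

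**Figure D1:**
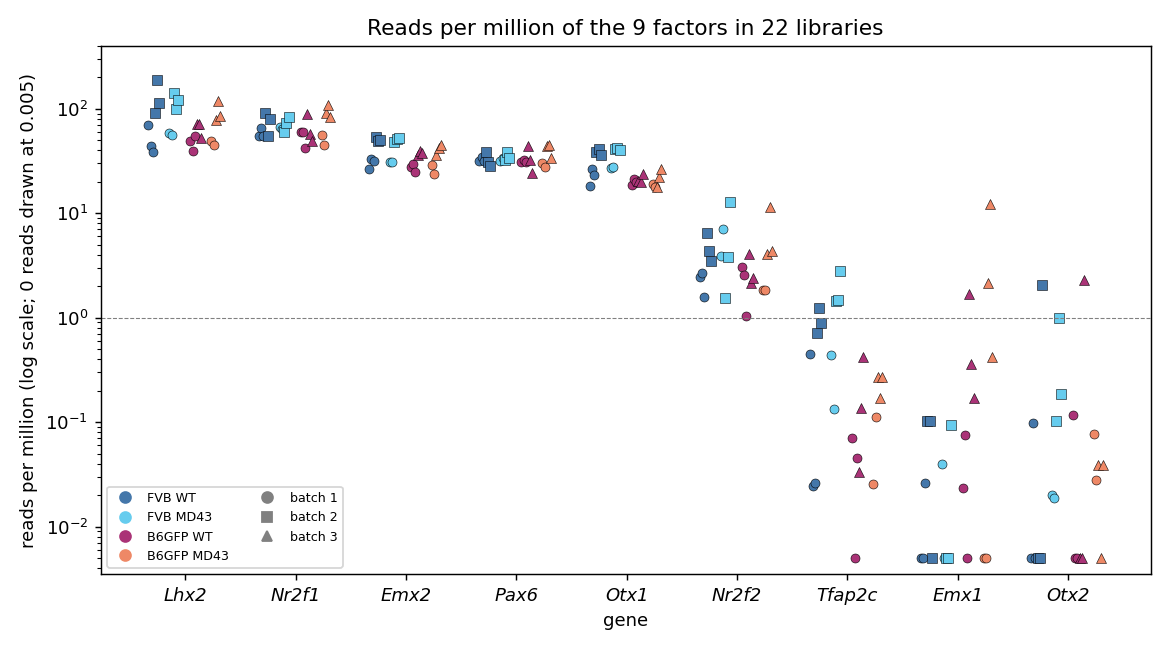
RPM (log axis) of the 9 factors in each of 22 libraries, coloured by group, with the symbol giving the batch and 0 reads drawn at 0.005. Lhx2, Nr2f1, Emx2, Pax6 and Otx1 lie above 17 RPM throughout, whereas Tfap2c, Emx1 and Otx2 lie mostly below the dashed line at 1.

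**Figure D2:**
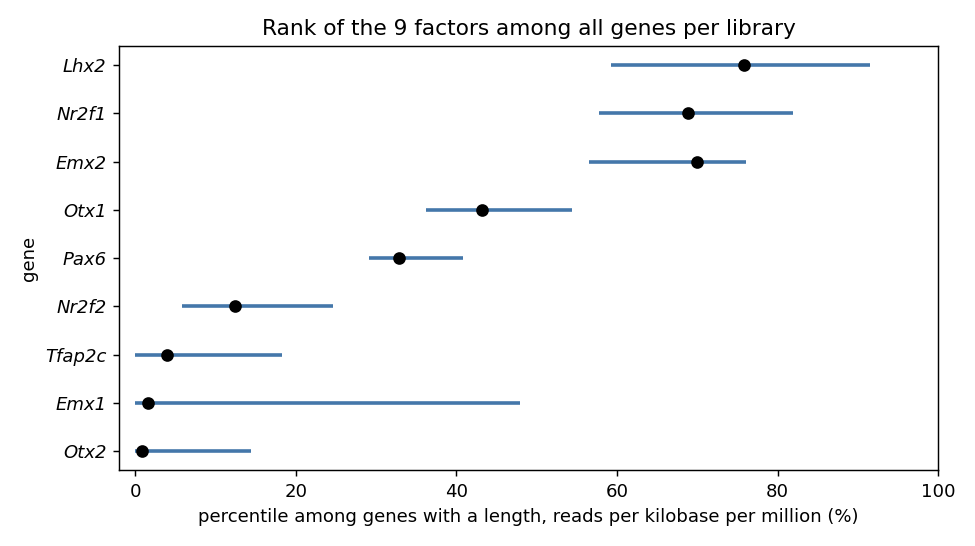
Percentile of each factor among the 13484 genes with a length, on the scale of RPKM. Points are medians over 22 libraries and lines run from the lowest to the highest library. The line of Emx1 reaches from 0 to 47.9, with its upper end in batch 3.

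Of the 3 paralog pairs, the Emx pair had the widest range of shares between libraries. Emx2 lies on chromosome 19 (chr19:59458690-59465357, plus strand, GRCm38.p6) and Emx1 on chromosome 6 (chr6:85187931-85204463, plus strand). An antisense gene, Emx2os, covers 8.79% of the exon length of Emx2, and no strand setting of the counting is given in the sources used here. Per kilobase, Emx1 made up at most 0.287% of the summed Emx reads in any FVB library, up to 5.96% in B6GFP WT and up to 28.5% in B6GFP MD43, where replicate 2 of batch 3 was highest. The 250 bases before each start are shown because both the low and the well expressed paralog have a CG-rich upstream sequence. Capitals mark CG dinucleotides in the plus strand (RefSeq, GRCm38.p6).
Emx1, chr6:85187681-85187930: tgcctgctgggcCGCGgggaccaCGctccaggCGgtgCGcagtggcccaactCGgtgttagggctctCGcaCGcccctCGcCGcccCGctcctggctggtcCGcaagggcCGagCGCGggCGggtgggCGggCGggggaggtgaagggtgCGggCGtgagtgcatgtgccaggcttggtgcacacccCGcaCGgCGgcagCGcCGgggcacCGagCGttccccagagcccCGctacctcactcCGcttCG
Emx2, chr19:59458440-59458689: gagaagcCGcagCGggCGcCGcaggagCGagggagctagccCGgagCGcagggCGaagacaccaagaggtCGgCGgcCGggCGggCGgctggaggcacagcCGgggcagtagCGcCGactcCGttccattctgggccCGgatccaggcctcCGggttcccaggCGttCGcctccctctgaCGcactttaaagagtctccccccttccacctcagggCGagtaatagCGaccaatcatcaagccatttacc
The Emx1 window holds 30 CG and the Emx2 window 24, against a median of 6 over 32817 RefSeq windows of the same length. At least 30 CG were found in 5.95% of those windows and at least 24 in 11.98%. These counts describe the genome sequence only, and no methylation or binding was measured here.

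Emx1 was nearly absent from batches 1 and 2. The 10 libraries of batch 1 held 0 to 3 Emx1 reads each, and the 6 of batch 2 held 0 or 1. In batch 3 each of 6 libraries held 10 or more. B6GFP WT had 50 reads (1.67 RPM, 95% Poisson interval 1.24 to 2.21) in replicate 2, 13 (0.359) in replicate 3 and 10 (0.169) in replicate 4. B6GFP MD43 had 715 reads (12.1 RPM, interval 11.3 to 13.1) in replicate 2, 55 (2.13) in replicate 4 and 11 (0.423) in replicate 3. The same lines can be followed between batches: B6GFP WT replicate 2 had 3 reads in batch 1 and 50 in batch 3, B6GFP WT replicate 3 had 0 and 13, and B6GFP MD43 replicate 3 had 0 and 11. Emx1 therefore differed by batch within each of these lines. By RPM in batch 3, B6GFP MD43 replicates 2 and 4 were highest and B6GFP WT replicates 3 and 4 lowest. B6GFP WT replicate 2 and B6GFP MD43 replicate 3 lay between them.

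In batch 3 Emx1 stood in the same order of libraries as 3 genes of neurons. Fezf2 and Tbr1, regulators of deep-layer projection neurons, and Stmn2, a neuronal tubulin-binding protein, were chosen after their values were seen. The shared order is thus a description only, and the number of other genes with this order is not given. In B6GFP MD43 replicate 2 there were 1681 Fezf2, 3600 Tbr1 and 11724 Stmn2 reads. In B6GFP WT replicate 4, at the other end, there were 4, 7 and 19. In batch 1 the highest library had 2 Fezf2, 14 Tbr1 and 4 Stmn2 reads. Tubb3, from the neuron marker list, stood in this order too, from 362 RPM in B6GFP MD43 replicate 2 to 6.70 in B6GFP WT replicate 4. Dcx, a microtubule-binding protein of young neurons from the same list, departed from this order only in its lowest libraries. It was at 2.01 RPM in B6GFP WT replicate 4 and 0.828 in B6GFP WT replicate 3 of batch 3. In the FVB libraries of batch 1, which held 0 to 2 Emx1 reads, Dcx was at 25.2 to 35.1 RPM, near the 25.0 of B6GFP MD43 replicate 4 of batch 3 with its 55 Emx1 reads. Tubb3 was at 7.53 to 13.8 RPM in those FVB libraries and at 58.4 in B6GFP MD43 replicate 4 of batch 3. The part of neurons in the Emx1 level was not tested.

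**Figure D3:**
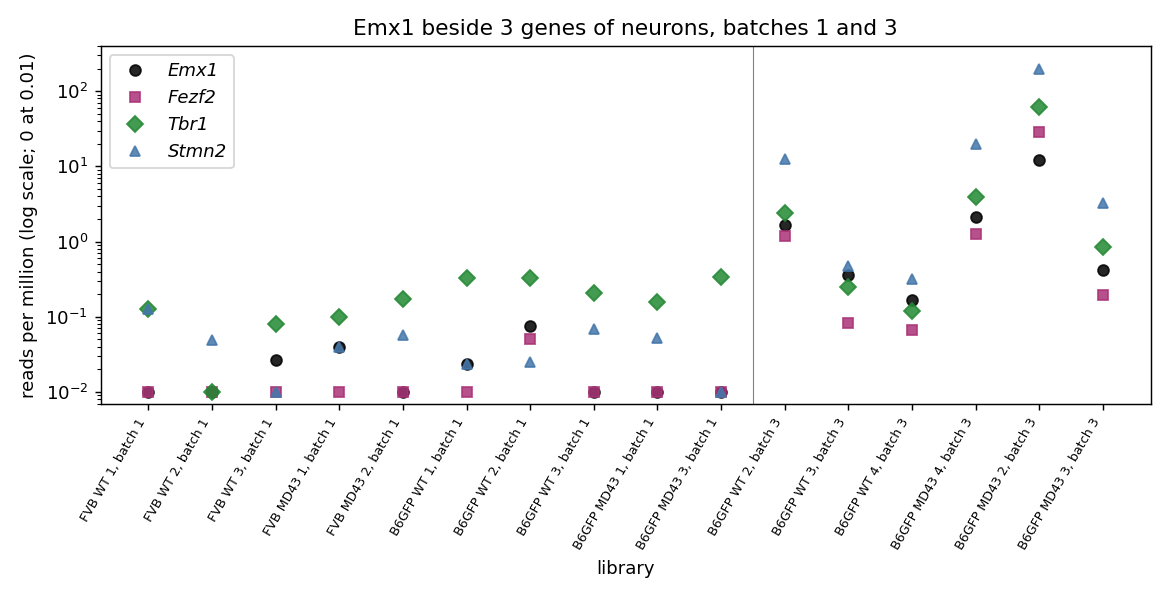
RPM (log axis, 0 drawn at 0.01) of Emx1, Fezf2, Tbr1 and Stmn2 in the 10 libraries of batch 1 (left of the line) and the 6 of batch 3 (right). In batch 3 the 4 genes share 1 order of libraries, and B6GFP MD43 replicate 2 is highest for each.

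This batch pattern is hard to see in the deposited values. The batch correction moved Emx1 by 0.64 in batch 1, 0.19 in batch 2 and -3.12 in batch 3 on the log2 scale. Only 0.965% of genes were moved by as much in batch 3, where the median size was 0.26. As a result, the 3 reads and the 50 reads of B6GFP WT replicate 2 are deposited as -2.21 and -2.32 log2 CPM. No fold change is given for Emx1, whose levels are at or under 3 reads in 16 libraries.

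Otx1, a homeobox gene of cortical progenitors and later of deep-layer neurons, was present at 17.7 to 42.4 RPM. Otx2, which defines the anterior neural plate and is later strong in the midbrain and the choroid plexus, had 5 reads or fewer in 19 of 22 libraries. The exceptions were B6GFP WT replicate 4 with 136 reads (2.29 RPM, interval 1.92 to 2.71), the batch 2 library of FVB WT replicate 2 with 23 (2.04, interval 1.30 to 3.07) and FVB MD43 replicate 5 with 8 (0.987). FVB WT replicate 2 had only 4 Otx2 reads in batch 1. Per kilobase, Otx1 made up 89.0% to 100% of the summed Otx reads. The first of these exceptions is the library that stood apart. It also held 514 reads of Six3, an anterior forebrain homeobox gene, and 195 of En2, a midbrain and hindbrain gene, against at most 3 En2 reads in the other libraries of batch 3 (both chosen after their values were seen). Six3 was higher still per library size in the second exception, FVB WT replicate 2 of batch 2, with 138 reads (12.3 RPM, against 8.67 in B6GFP WT replicate 4).

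Nr2f1 and Nr2f2 encode orphan nuclear receptors also known as COUP-TFI and COUP-TFII. Nr2f1 sets caudal identity across the cortex, and Nr2f2 is known from caudal and ventral progenitors and their interneurons. Nr2f1 was present at 41.7 to 110 RPM and Nr2f2 at 1.04 to 12.9. Nr2f1 made up 91.7% to 98.5% of the pair per kilobase. The share was lowest in FVB MD43 replicate 2 of batch 2, where Nr2f2 was highest. An antisense gene covers 7.46% of the exon length of Nr2f2 and another 2.42% of that of Nr2f1. Tfap2c, which encodes AP-2 gamma and takes part in making basal progenitors, had 0 to 30 reads. In the 6 libraries of batch 2 it stood at 0.715 to 2.81 RPM, against 0 to 0.449 in batch 1, and the correction moved it by -2.07 in batch 2 and 0.54 in batch 1 (log2).

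The well expressed factors also differed in how steady they were between lines. Emx2 had a pooled SD of 0.091 log2 between lines of a group, and only 7.25% of the 2525 genes within 0.5 log2 of its mean level had a smaller one. Otx1 had 0.14, with 17.9% of genes of like level below it. Lhx2 had 0.35, and 94.9% of genes of like level were steadier. Nr2f1 had 0.30 (90.4%) and Pax6 0.21 (66.1%). In 5 lines with 2 libraries each, the deposited values of repeats differed by a median of 0.14 for Emx2, 0.24 for Otx1, 0.19 for Lhx2, 0.090 for Nr2f1 and 0.18 for Pax6. An SD and a median gap are different measures, so they are given side by side only.

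Before correction the same repeats showed a shift by batch. Lhx2 went from 44.2 to 115 RPM between batch 1 and batch 2 in FVB WT replicate 2, and from 56.1 to 121 in FVB MD43 replicate 2. Pax6 went from 34.8 to 28.6 and from 33.8 to 33.7 in the same lines. Relative levels of these factors are thus comparable within a batch only, or on the corrected scale.

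The first comparison asked whether the MommeD43 change altered these factors in FVB cells. 0 of 9 members passed, against 0.0737% of the 14922 genes, by limma at an adjusted p under 0.05. Of all genes 0.0201% were higher and 0.0536% lower. Limma's voom on the recovered reads called 0 members and 77 genes. At an unadjusted p under 0.05 there were 3 members, Tfap2c, Nr2f2 and Lhx2, and 1024 genes. Pax6 was at 4.999 ± 0.12 log2 CPM (SD, n = 5 lines) in FVB WT and 5.05 ± 0.12 (n = 4) in FVB MD43. The fitted change was 0.0038 (95% interval -0.13 to 0.14). Emx2 was at 5.17 ± 0.12 and 5.18 ± 0.058, with a fitted change of -0.047 (interval -0.17 to 0.078). Both intervals span 0.

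Nr2f2 varied widely between FVB lines. FVB WT ranged from -0.037 over a median of 0.66 to 1.49 log2 CPM, and FVB MD43 had 1.23 and 2.09 in replicates 1 and 2 of batch 1 and -0.51, 0.75 and 2.49 in replicates 4, 5 and 2 of batch 2. Both libraries of FVB MD43 replicate 2 lay above the FVB WT range, and replicate 4 lay below it. The fitted change was 1.05 (SE 0.34, adjusted p = 0.371), while the plain difference of line means was 0.21. The fit gave FVB MD43 replicate 2 of batch 1 the largest weight of any library, 4.90, and without quality weights the change was 0.37 (adjusted p = 1).

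Tfap2c came closest to the threshold. FVB WT held 14, 1 and 1 reads in batch 1 and 7, 12 and 10 in batch 2, and FVB MD43 held 22 and 7 in batch 1 and 14, 12 and 30 in batch 2. The groups overlapped. The fitted change was 1.32 on the deposited scale (SE 0.36, adjusted p = 0.239, higher than the FVB WT mean in 4 of 4 lines). Without FVB MD43 replicate 2 it passed only where the estimation of the library weights did not converge (2.07, adjusted p = 0.00113), and not with limma's gene-by-gene weights (1.89, adjusted p = 0.0917). With all 24 columns, where 1 value of FVB MD43 is a mean of others, it passed with either kind of weights (1.51 and 1.502, adjusted p = 0.00208 and 0.00624). Lhx2 ranged from 5.80 over a median of 6.07 to 6.87 in FVB WT and was at 6.40, 6.34, 6.46, 5.94 and 6.22 in FVB MD43. Its fitted change was 0.28 (SE 0.12, adjusted p = 0.586) and its difference of line means 0.028.

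In B6GFP cells the same comparison called 0 of 9 members and 0% of all genes by limma, and 0 members and 2 genes by voom on the recovered reads. No member and 319 genes had an unadjusted p under 0.05. Pax6 was at 4.80 ± 0.33 (n = 4) in B6GFP WT and 5.04 ± 0.21 (n = 4) in B6GFP MD43, with a fitted change of -0.062 (interval -0.24 to 0.12). Lhx2 was at 5.94 ± 0.28 and 6.29 ± 0.29, with a fitted change of 0.10 (interval -0.21 to 0.42). Nr2f1 was at 5.23 ± 0.42 and 5.60 ± 0.24, with a fitted change of -0.012 (interval -0.29 to 0.26). The 2 libraries that stood apart pulled these means in opposite directions. B6GFP WT replicate 4 had the lowest Pax6 (4.34), Lhx2 (5.56) and Nr2f1 (4.75) of its group, and B6GFP MD43 replicate 2 had the highest (5.23, 6.72 and 5.91). Without B6GFP WT replicate 4 the fitted changes of Pax6, Lhx2 and Nr2f1 were -0.076, 0.10 and -0.028, and without B6GFP MD43 replicate 2 they were -0.066, 0.085 and -0.023. Nr2f2 was at 0.086 ± 0.71 and 0.65 ± 0.77, with 674 reads in B6GFP MD43 replicate 2 and 66 to 112 in the others of its group. The part of the other cell types in these levels was not tested.

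The effect of MommeD43 was not shown to differ between strains. 0 of 9 members and 0% of genes passed limma's test of the difference, as did 0 members and 1 gene by voom on the recovered reads, with 0 members and 459 genes at an unadjusted p under 0.05. The smallest p of a member was that of Nr2f2 (difference, B6GFP minus FVB, -1.15, SE 0.56, unadjusted p = 0.0513, adjusted p = 0.9998), followed by Otx1 (-0.23, SE 0.12, unadjusted p = 0.0630).

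**Figure D4:**
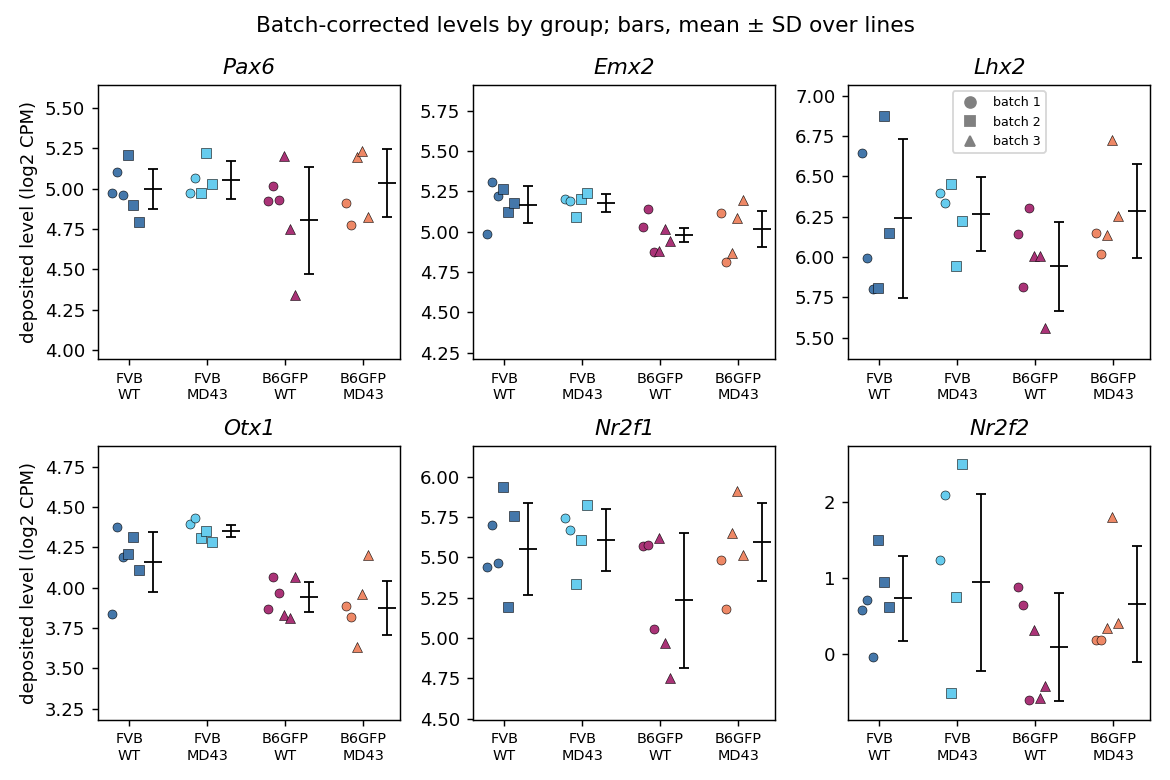
Deposited, batch-corrected levels (log2 CPM) of 6 factors by group. Points are libraries with the symbol giving the batch, and bars are the mean ± SD over lines (n = 5, 4, 4 and 4). Otx1 has lower means in both B6GFP groups, without overlap between the MD43 groups and with overlap between the WT groups, and the groups overlap for Pax6, Lhx2, Nr2f1 and Nr2f2.

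Otx1 was lower in B6GFP than in FVB cells. Between the WT groups 2 of 9 members passed, against 41.1% of all genes, and both were lower, where 17.9% of genes were higher and 23.2% lower. Otx1 was at 3.84, 4.37 and 4.19 log2 CPM in the FVB WT libraries of batch 1 and 4.21, 4.32 and 4.11 in batch 2. B6GFP WT had 3.87, 4.06 and 3.97 in batch 1 and 3.83, 3.81 and 4.07 in batch 3. Apart from FVB WT replicate 1, the FVB WT libraries lay above those of B6GFP WT. The fitted change was -0.31 (0.806-fold, SE 0.080, adjusted p = 0.00387, lower than the FVB WT mean in 4 of 4 lines). Emx2 changed by -0.22 (0.859-fold, SE 0.068, adjusted p = 0.0140), with 5.17 ± 0.12 in FVB WT and 4.98 ± 0.045 (n = 4) in B6GFP WT. The line values overlapped for both genes.

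These calls were weak. Within batch 1, which held both strains, Otx1 changed by -0.29 (adjusted p = 0.0545) and Emx2 by -0.21 (adjusted p = 0.101). Without quality weights neither passed (adjusted p = 0.323 and 0.273), nor did either without FVB WT replicate 2 (-0.21 and -0.15, adjusted p = 0.107 and 0.180). The sizes kept their direction in each of these.

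Between the MD43 groups 2 of 9 members passed, against 34.4% of all genes, both lower, where 14.7% of genes were higher and 19.6% lower. Otx1 was at 4.39, 4.43, 4.31, 4.35 and 4.28 log2 CPM in FVB MD43 and at 3.89, 3.82, 3.63, 3.96 and 4.205 in B6GFP MD43. The groups did not overlap. The fitted change was -0.54 (0.688-fold, SE 0.094, adjusted p = 0.000162), and it was -0.56 within batch 1 (adjusted p = 0.0170). Without quality weights it did not pass (-0.48, adjusted p = 0.0626). Line values did not overlap for 2 of 9 members, Otx1 and Tfap2c, against 21.3% of all genes. Nr2f2 changed by -1.35 (SE 0.45, adjusted p = 0.0248), but the B6GFP MD43 values of 0.19, 0.18, 0.33, 1.80 and 0.40 lay within the range of FVB MD43, and the difference of line means was -0.29. Without quality weights the change was -0.45 (adjusted p = 0.758), without FVB MD43 replicate 2 it was -0.88 (adjusted p = 0.0515) or, with gene-by-gene weights, -0.68 (adjusted p = 0.244), and on the recovered reads it was -1.29 (adjusted p = 0.0701).

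**Figure D5:**
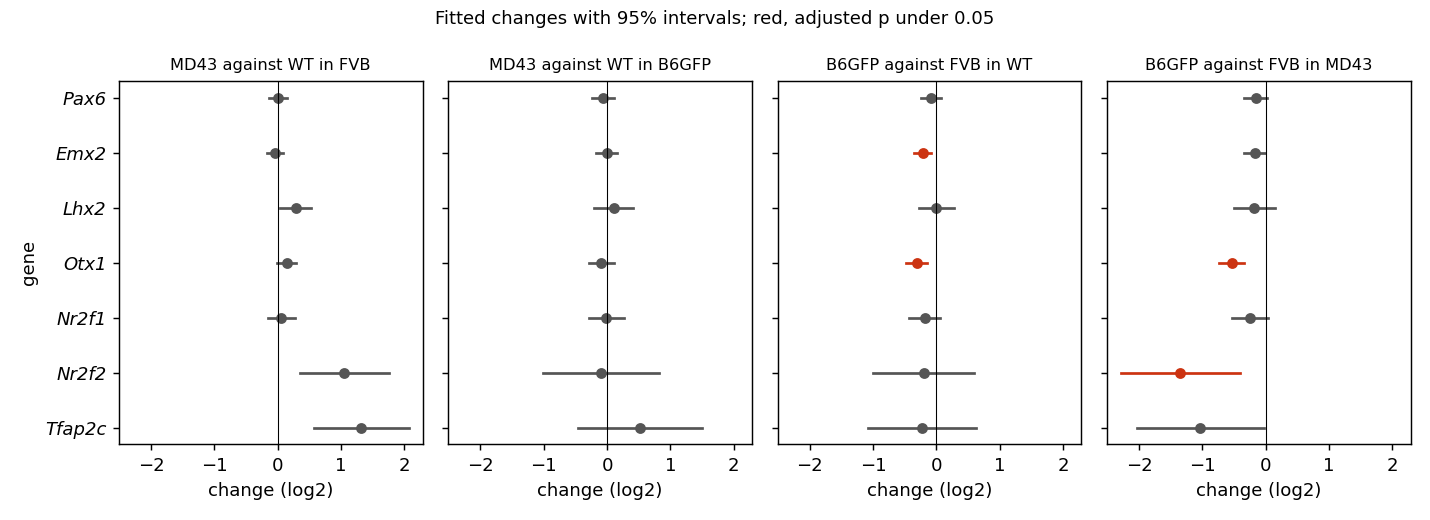
Fitted changes (log2, points) with 95% intervals (lines) of 7 factors in 4 comparisons, with red for an adjusted p under 0.05. Intervals of Pax6, Emx2, Otx1 and Nr2f1 span 0 in both MD43 comparisons, and Otx1 lies below 0 in both strain comparisons.

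Other genes of the same territory give the setting in which these levels stand. Of 21 other dorsal telencephalon regulators 18 were in the table, and 12 had a median above 1 RPM. Gli3 and Nr2e1 were at a mean of 4.77 and 4.29 log2 CPM. MommeD43 called 0 of 18 of these genes in either strain. Between the WT groups 6 were higher and 5 lower, with a median change of 0.19 (all genes, -0.021). Of all genes 17.9% were higher and 23.2% lower there. Between the MD43 groups 1 of the 18 was higher and 4 lower, with a median of -0.11 (all genes, -0.028). The shares of all genes there were 14.7% and 19.6%. Hes5, a Notch target, changed by -2.66 (SE 0.32, adjusted p = 1.36e-06) and Bcl11b by 1.09 (SE 0.19, adjusted p = 9.44e-05) in the WT comparison.

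Ventral genes were present beside the dorsal ones. 12 of 19 ventral telencephalon genes were in the table, and 7 had a median above 1 RPM. Olig1 and Olig2 led, at a mean of 10.01 and 9.19 log2 CPM. Olig1 and Olig2 mark both ventral progenitors and the oligodendrocyte lineage. Of the 12 ventral genes 2 were higher and 1 lower between the WT groups, and 2 and 2 between the MD43 groups. Their medians were -0.048 and -0.32. All genes had called shares of 41.1% and 34.4% and medians of -0.021 and -0.028 in these comparisons. The same shares of all genes stand beside the counts of the lists that follow. Of 17 hem and midline genes 9 were in the table, led by Wnt5a, Bmp7 and Zic2, with 2 higher and 2 lower between the WT groups and 1 and 3 between the MD43 groups, with medians of -0.14 and -0.46. Of 32 midbrain, hindbrain and spinal cord genes 6 were in the table, and 1 of them, Dbx2, had a median above 1 RPM. Dbx2 changed by -0.98 (SE 0.13, adjusted p = 7.05e-06) between the WT groups and by -1.01 (SE 0.16, adjusted p = 4.77e-05) between the MD43 groups. MommeD43 called none of the 27 genes of these 3 lists by limma in either strain.

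The label of NSC was checked by its markers. 9 of 9 NSC markers had a median above 1 RPM. Sox2 was at 212 to 347, Nes at 826 to 1737, Vim at 1403 to 2998 and Fabp7 at 1089 to 2737 RPM. Between the WT groups 2 NSC markers were higher and 7 lower, with a median change of -0.59, and between the MD43 groups 2 were higher and 6 lower, with a median of -0.61. Of all genes 17.9% were higher and 23.2% lower between the WT groups, and 14.7% and 19.6% between the MD43 groups. Nes changed by 0.67 (SE 0.069, adjusted p = 1.62e-07) and Sox2 by -0.40 (SE 0.047, adjusted p = 9.05e-07). Of 5 astrocyte markers 5 were lower in both strain comparisons, with medians of -1.70 and -2.14, and of 4 intermediate progenitor markers 2 were in the table, of which Btg2 was lower in both. Oligodendrocyte markers numbered 7 of 7, with 2 higher and 2 lower between the WT groups. Among 7 neuron markers 1 was higher and 2 lower there. Of 6 microglia markers 1 was in the table, at 0.611 to 3.63 RPM. Endothelial markers summed to 0.745 to 3.88 RPM and mesenchymal markers to 2.56 to 18.9 outside B6GFP MD43 replicate 2, where they reached 15.5 and 23.2. Their part in the changes of Otx1 and Emx2 between strains was not tested.

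For 6 factors the genes of most similar pattern were sought by Pearson correlation over 17 line means, after subtracting the group mean, among 12681 genes with a mean above 1 CPM. These correlations are a description, since the best of so many genes is bound to be high. Pax6 was followed most closely by Acy1 and Atic (r = 0.944 and 0.941). Emx2 was followed by Zfp937 and Zfp146 (r = 0.918 and 0.902). Lhx2 was closest to Serp2 and Stk32b (r = 0.9497 and 0.927), and Otx1 to Gm17388 and Zscan22 (r = 0.913 and 0.905). Nr2f1 was closest to Hook2 and Ucp2 (r = 0.915 and 0.913), and Nr2f2 to Gm20204 and Fchsd1 (r = 0.857 and 0.841). None of these 6 factors was among the 2 closest genes of another. Emx1, Otx2 and Tfap2c lay below 1 CPM and were not searched.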

How the data were processed

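RNA was sequenced from female mouse NSC lines as 75-bp single-end reads, with 100 ng of input. Per the labels and the methods of the study, the authors trimmed reads with Trim Galore 0.4.4 and aligned them with HISAT2 2.0.5 to GRCm38.p6. The counting tool and annotation are not given in the sources used here. The authors deposited log2 CPM values after a correction whose terms, per the methods, were batch, sex and strain, fitted together with further libraries not used here. In the deposited values of the 9 factors the correction was 1 constant per gene and batch, also in batch 1, which holds both strains, so that strain differences remained in them. Within a batch, every value equalled a gene-specific constant times a whole number of reads plus an offset, on the log2 scale. Whole reads were recovered for 44765 of 44766 gene-by-batch sets, with a worst distance of 0.0012 from a whole number (tolerance 0.002).

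Groups and lines were taken from the labels. p-values rest on the spread between libraries after group and batch, with libraries of a line taken as correlated. This correlation was estimated at 0.083, so repeats of a line counted nearly as separate libraries. The p-values therefore do not measure the spread between lines alone. The log2 CPM values were fitted with limma 3.58.1 (R 4.3.3), with group and batch as terms, line as a block, quality weights and a mean-variance trend, for 14922 genes and 22 libraries, with Benjamini-Hochberg adjustment over all genes. The fit was tested on simulated data. RPM and RPKM of the recovered reads, exon lengths (GENCODE, GRCm38.p6) and shares were computed in Python 3.11.15. Alternatives were other weights, trends, filters, offsets, scalings, blocks and batches, leaving out each line, and, chosen after seeing the data, voom on the recovered reads, another gene length, and gene-by-gene library weights, since the REML weights did not converge in 5 fits. The members, the companion lists and the rule for named genes (all members, the leading or most clearly changed genes of each list, and the 2 closest genes in pattern) were chosen with earlier results of these data known. Some genes of the companion lists are included in the counts but not reported here by themselves.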

Additional observations from a re-analysis of the deposited data

Results flagged for a closer look

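In 36 sets of line values (9 factors in 4 groups), 5 had a line far from the others by Dixon's test at the 95% level, and chance flags about 1 in 20. Pax6 was 5.21 log2 CPM in FVB WT replicate 4, against 4.90 to 4.97 in the other lines of its group. Emx2 was 5.09 in FVB MD43 replicate 4, against 5.20 to 5.21. Otx1 was 3.84 in FVB WT replicate 1, against 4.19 to 4.32. Lhx2 was 6.72 in B6GFP MD43 replicate 2, against 6.13 to 6.15, and Nr2f2 was 1.80 in the same line, against 0.19 to 0.33. This line is the one that also held the highest levels of 6 of 7 neuron markers, and the part of those cells in its Lhx2 and Nr2f2 was not tested.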

How the results depend on the processing

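No result that passed the threshold changed direction in any alternative run, and each of the 60 changes of direction concerned a fitted change that passed neither in the main fit nor in the alternative. Calls of members depended on the settings. With no quality weights, 0 members passed in either strain comparison (1259 genes between the WT and 1017 between the MD43 groups). Within batch 1, 0 passed between the WT groups (5095 genes) and 1 between the MD43 groups (3596 genes). With each library centred on its median, 1 passed between the WT groups (6152 genes), where Emx2 was lost. On the recovered reads (voom), 1 passed between the MD43 groups (4757 genes). With all 24 columns, the 2 mean columns shrink the spread. There 8 members passed between the MD43 groups, where 13991 of 14922 genes passed, and 1 for MommeD43 in FVB (510 genes). Without 1 line at a time, 0 to 1 members passed for MommeD43 in FVB (1 without FVB MD43 replicate 2), 0 to 2 between the WT groups (0 without FVB WT replicate 2, 1 without B6GFP WT replicate 3) and 2 to 5 between the MD43 groups (5 without B6GFP MD43 replicate 1). Of 14922 genes, 981, 4014, 6203 and 6288 passed in the fits named, in the same order.

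The estimation of the library weights did not converge in 5 of 29 fits, namely with all 24 columns, where the largest weight was 805, and without FVB MD43 replicate 1 or 2 or B6GFP MD43 replicate 1 or 3. Limma's gene-by-gene weights were therefore added after seeing the data. In the 22 libraries they gave 0, 0, 2 and 2 members in the 4 group comparisons, as the main weights did. Without FVB MD43 replicate 2 they gave 0 members and 7 genes for MommeD43 in FVB, against 1 member and 981 genes without convergence. Between the MD43 groups they gave 7 members with all 24 columns, 4 without B6GFP MD43 replicate 1 and 1 without B6GFP MD43 replicate 3, where Nr2f2 did not pass (adjusted p = 0.0540). Of 14922 genes, 11842, 5002 and 5023 passed there, in the same order.

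The replicate numbers do not pair the samples: lines of the same number are different lines, and correlations of their deviations ran from -0.48 to 0.14. With the number as a replicate block, 1 member passed for MommeD43 in FVB (Tfap2c, 1.25, adjusted p = 0.0302), and Nr2f2 no longer passed between the MD43 groups (-0.49, adjusted p = 0.383). The block also moved the number of genes called for MommeD43 in FVB from 11 to 137, and in B6GFP from 0 to 3.

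For MommeD43 in FVB, the uncalled changes that turned sign were Pax6 (-0.0090 median-centred, -0.0013 with only genes above 1 CPM, -0.017 within batch 1, -0.059 to 0.040 leaving out lines), Emx2 (0.0069 with no weights, 0.018 within batch 2, -0.071 to 0.0068 leaving out lines), Lhx2 (-0.070 within batch 2) and Nr2f1 (-0.0016 with the replicate block). For MommeD43 in B6GFP they were Pax6 (0.030 with all columns, 0.17 with no weights), Emx2 (0.078 on line means, 0.034 with no weights, 0.18 within batch 3, -0.17 to 0.062 leaving out lines), Lhx2 (-0.031 with the replicate block, -0.074 to 0.21 leaving out lines), Otx1 (0.21 within batch 3), Nr2f1 (0.11 with all columns, 0.032 on line means, 0.32 with no weights, 0.017 with the label's number before the point as block, 0.11 with the replicate block, 0.29 within batch 3, -0.17 to 0.062 leaving out lines) and Nr2f2 (0.17 with all columns, 0.56 with no weights, 0.47 with the replicate block, 0.011 on the recovered reads, 0.67 within batch 3, -0.35 to 0.20 leaving out lines). Between the WT groups they were Lhx2 (-0.27 with no weights, -0.0017 with only genes above 1 CPM, -0.072 with the replicate block, -0.020 on the recovered reads, -0.11 to 0.15 leaving out lines) and Nr2f2 (0.043 with the replicate block, 0.068 within batch 1, -0.54 to 0.053 leaving out lines). The difference between strains turned to 0.19 for Nr2f2 with no weights. With gene-by-gene weights, Pax6 turned in FVB without FVB MD43 replicate 2 (-0.034). In B6GFP, Pax6, Nr2f1 and Nr2f2 turned with all columns (0.022, 0.094 and 0.14), and Emx2 and Nr2f1 without B6GFP MD43 replicate 3 (0.049 and 0.059). Lhx2 turned between the WT groups without the same line (-0.0055). The cause was not tested for any of these.

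In the order of the factors within a library, the median place of Pax6 went from 5 to 3 with no length correction and to 4 with the longest transcript, that of Emx2 from 2 to 4 and to 3, and that of Otx1 from 4 to 5 in both. Genes called for MommeD43 in FVB numbered 11 in the main fit, 1 with no weights, 510 with all 24 columns and 77 on the recovered reads, and between the WT groups 6131 and 1259 with no weights. Centring turned the split of calls between the WT groups from 2676 higher and 3455 lower to 3608 and 2544. Depth limits Emx1, Otx2 and Tfap2c, which mostly rest on fewer than 30 reads, and least so the 5 well expressed factors.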
